A study of Mus musculus with 2 samples.

Results

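Genes of endothelial activation and leukocyte adhesion were followed in single heart cells 14 days after myocardial infarction (MI) or sham surgery. Most of them help blood vessel endothelium tether platelets or leukocytes, whereas Plvap and Lrg1 have other roles, given below. The 7 genes, Vwf, Selp, Sele, Icam1, Vcam1, Plvap and Lrg1, were taken as a named list chosen with earlier results of these data known. All 7 were present among the 21745 genes found in both count tables. Expression was measured by Drop-seq, a droplet method in which every counted molecule carries a sequence for its cell and another of its own (the unique molecular identifier, UMI). The MI library came from 1 heart with a permanently tied left anterior descending coronary artery. The sham library was made from 4 pooled hearts that had the same operation without tightening of the suture. All animals were male wild-type C57BL6/J mice of 8 to 10 weeks, and no transgene or drug was used in either group. Each group was thus a single library, so every difference below compares those libraries and has no replicate check. Intervals are 95% and cover counting error only.

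The deposited tables held 8555 MI barcodes with a median of 2466 UMIs and 6337 sham barcodes with a median of 1424 UMIs. After filtering, 8294 MI and 5969 sham cells were kept, and of the 5 barcodes that the libraries shared none was endothelial in both. Cells were sorted by marker genes into endothelium without an Npr3 UMI (269 MI and 1954 sham cells), endothelium with an Npr3 UMI, called endocardium after that receptor (174 MI and 147 sham cells), lymphatic endothelium (30 MI and 76 sham cells) and non-endothelial classes (7394 MI and 3531 sham cells). Npr3-negative endothelium made up 3.24% (2.87 to 3.65) of the MI library and 32.7% (31.5 to 33.9) of the sham library, whereas the Npr3-positive share was 2.10% (1.80 to 2.43) in MI and 2.46% (2.08 to 2.89) in sham. With cells thinned to equal depth before gating, the log2 ratio of the Npr3-positive shares, MI over sham, was -1.17 (-1.93 to -0.43). Without thinning, Npr3-positive cells were 174 of 473 endothelial cells in MI and 147 of 2177 in sham, and a level averaged over all endothelium mixes the cell types in unlike proportions. The median depth of Npr3-negative cells was 2836 UMIs in MI and 1341 in sham, and that of Npr3-positive cells was 4479.5 UMIs in MI and 1923 in sham.

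The labels of the gates were compared with marker levels. Npr3 and the lymphatic, fibroblast and mural genes below also set the gates, so their levels are no separate check. Levels are given as CPM, the UMIs of a gene summed over the cells of a gate and scaled to a common total. Among endocardial genes other than Npr3, the Npr3-positive gate had more than the Npr3-negative gate of Cgnl1 (718 against 174 CPM in MI, 1270 against 120 CPM in sham) and of Tmem108 (322 against 23.3 CPM in MI, 140 against 3.72 CPM in sham). Cytl1 was at 47.6 CPM in MI and 1088 CPM in sham Npr3-positive cells, Hapln1 was at 0 in MI, and Nfatc1 was not higher than in Npr3-negative cells of MI (14.3 against 23.3 CPM). The MI gate therefore carries the endocardial name on fewer of its markers than the sham gate does. Npr3-positive cells also had fibroblast-list genes, mainly Dcn, summing to 2607 CPM in MI and 2288 CPM in sham, against 478 CPM in MI and 259 CPM in sham Npr3-negative cells, while Tcf21 was at 0 in MI and 14.0 CPM in sham. Lymphatic cells had Mmrn1, 1 of the 4 lymphatic gating markers, at 1438 CPM in MI and 1719 CPM in sham. Npr3-negative cells held under 1 CPM of Mmrn1 in both libraries. The 4 markers together summed to 67.3 CPM in MI and 37.4 CPM in sham Npr3-negative cells. The capillary list (8 genes, Cd36 and Rgcc among them) summed to 7559 CPM in MI and 25060 CPM in sham Npr3-negative cells. In Npr3-positive cells that list summed to 963 CPM in MI and 8291 CPM in sham. The sham Npr3-positive gate thus held more capillary transcript than the MI one. The mural list (10 genes) summed to 309 CPM in MI and 1561 CPM in sham Npr3-negative cells, largely Rgs5. In Npr3-positive cells the mural list summed to 35.2 CPM in MI and 727 CPM in sham. Whether these differences in cell make-up bear on the 7 genes was not tested.

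Several of these genes act in sequence when leukocytes leave the blood. Vwf encodes von Willebrand factor, a multimeric protein that catches platelets and builds the Weibel-Palade bodies of endothelium, and Selp encodes P-selectin, which is held in the membrane of those granules and reaches the surface when they fuse. Sele encodes E-selectin, which is made anew after inflammatory signals, and both selectins let leukocytes roll. Icam1 and Vcam1 encode immunoglobulin-family ligands that stop rolling cells, binding the leukocyte integrins Itgal or Itgam with Itgb2 (Icam1) and Itga4 with Itgb1 (Vcam1). Plvap forms the diaphragms of fenestrae and caveolae and is scarce in resting heart capillaries. Lrg1 encodes a secreted leucine-rich glycoprotein that, in mouse endothelium, modifies TGF-beta signalling through endoglin, and that neutrophils also store.

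Promoters are shown because inducible adhesion genes are known for kappaB elements close to their start, and 4 of the 7 genes had an entry in the RefSeq table (GRCm38.p6, 250 bases before to 50 after the annotated start). Vwf, Vcam1 and Plvap had none. Capitals mark matches, on either strand, to a kappaB-type motif (GGNNNTTCC), the letters TATAAA of a TATA box and a STAT-type motif (TTCNNNGAA). The 4 sequences, each written 5′ to 3′ on its gene's strand, are Selp (chr1:164115014-164115313, plus strand), Sele (chr1:164047984-164048283, plus strand), Icam1 (chr9:21015690-21015989, plus strand) and Lrg1 (chr17:56121897-56122196, minus strand).
Selp: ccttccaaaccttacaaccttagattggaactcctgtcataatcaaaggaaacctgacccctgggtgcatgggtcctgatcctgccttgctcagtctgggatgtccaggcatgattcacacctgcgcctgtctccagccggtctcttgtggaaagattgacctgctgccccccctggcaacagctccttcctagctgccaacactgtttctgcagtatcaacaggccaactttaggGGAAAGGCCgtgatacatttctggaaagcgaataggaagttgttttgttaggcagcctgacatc
Sele: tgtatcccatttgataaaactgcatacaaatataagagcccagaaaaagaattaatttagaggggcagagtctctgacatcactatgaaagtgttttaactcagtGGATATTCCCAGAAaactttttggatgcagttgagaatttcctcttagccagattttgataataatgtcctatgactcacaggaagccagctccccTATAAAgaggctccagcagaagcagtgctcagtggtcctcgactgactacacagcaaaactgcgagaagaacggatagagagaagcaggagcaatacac
Icam1: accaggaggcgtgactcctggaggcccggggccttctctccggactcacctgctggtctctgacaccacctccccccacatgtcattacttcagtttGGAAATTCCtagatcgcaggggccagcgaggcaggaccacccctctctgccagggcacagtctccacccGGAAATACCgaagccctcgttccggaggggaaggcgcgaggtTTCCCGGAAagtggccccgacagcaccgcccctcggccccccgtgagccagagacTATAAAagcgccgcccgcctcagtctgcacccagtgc
Lrg1: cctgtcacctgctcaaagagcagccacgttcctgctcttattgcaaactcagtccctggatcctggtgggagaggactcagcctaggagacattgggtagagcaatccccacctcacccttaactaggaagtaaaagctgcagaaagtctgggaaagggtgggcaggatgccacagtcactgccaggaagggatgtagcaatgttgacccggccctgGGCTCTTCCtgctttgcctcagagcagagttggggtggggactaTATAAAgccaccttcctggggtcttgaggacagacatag
Each of the 4 held a kappaB-type match, which 18.4% of 27025 RefSeq promoters of the same length also did. It read GGAAAGGCC beginning 14 bases before the start in Selp (minus strand), GGATATTCC 145 bases before it in Sele, and GGCTCTTCC 33 bases before it in Lrg1. Icam1 held GGAAATTCC 153 bases and GGAAATACC (minus strand) 84 bases before the start. A STAT-type match, present in 8.47% of promoters, lay in Icam1 (TTCCCGGAA) and in Sele, where TTCCCAGAA overlaps the kappaB-type match. TATAAA, present in 14.2%, lay 49 bases before the annotated start in Sele, and after it in Icam1 and Lrg1, beginning at bases 14 and 12 counted from the start. These are letter matches and were not measured as binding sites.

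**Figure D1:**
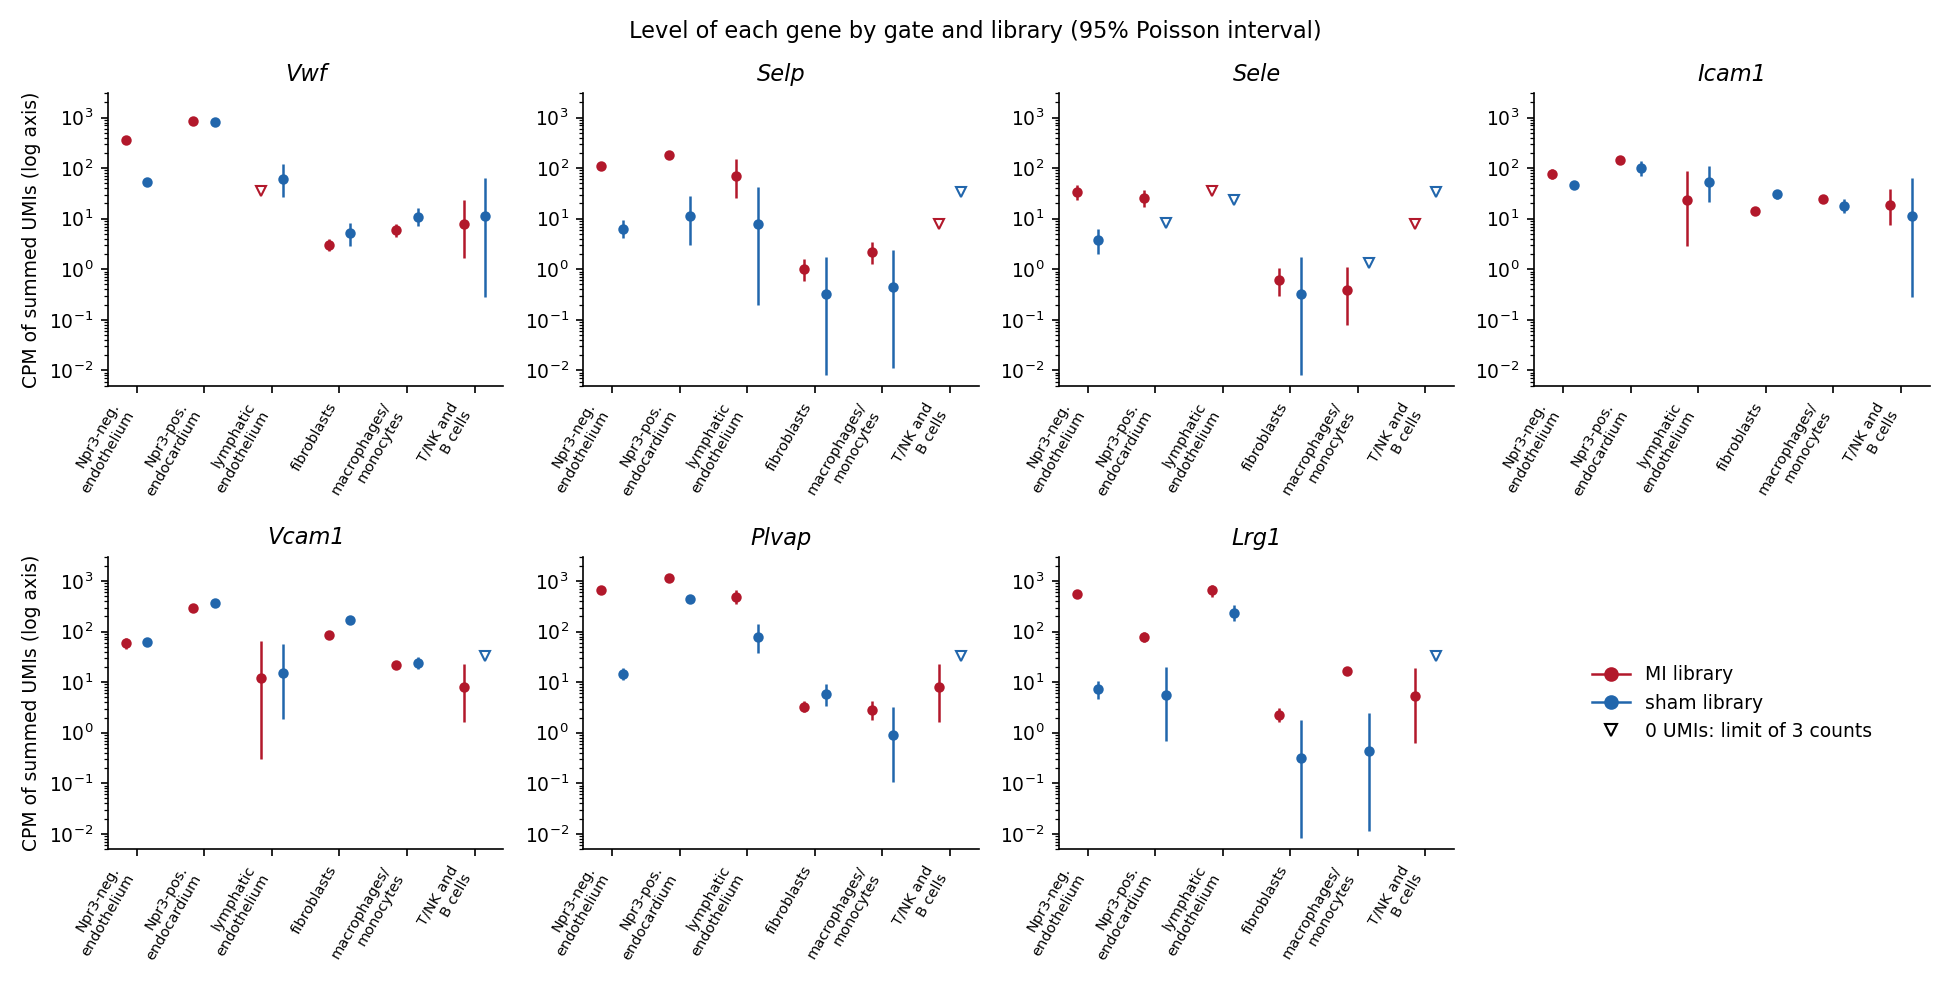
Level of each of the 7 genes (CPM of summed UMIs, log axis) in 6 cell classes of the MI library (red) and the sham library (blue). Points are values, bars the 95% Poisson interval, and open triangles the limit that 0 UMIs allows. Plvap in Npr3-negative endothelium sits at 669 CPM in MI and 14.6 CPM in sham, whereas Vcam1 there sits at 58.3 CPM in MI and 61.1 CPM in sham.

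In Npr3-negative endothelium, the granule and selectin genes, Plvap and Lrg1 were far higher in the MI library, and the integrin ligands were not. Lrg1 was 79.1-fold (53.8 to 121) and Plvap 45.8-fold (34.8 to 61.4) higher in MI, Selp 17.5-fold (11.2 to 28.3), Sele 8.93-fold (4.71 to 17.9) and Vwf 6.77-fold (5.71 to 8.06). Icam1 differed 1.70-fold (1.30 to 2.21) and Vcam1 0.955-fold (0.714 to 1.26). Thus 5 of the 7 genes were at least 2-fold higher and 0 were at least 2-fold lower, where 9.50% of the 11117 genes with at least 20 UMIs were 2-fold higher and 15.5% were 2-fold lower. The median log2 ratio was 3.16 over the 7 genes and -0.08 over all 11117. In Npr3-positive endocardium 4 of the 7 (Selp, Sele, Plvap and Lrg1) were at least 2-fold higher in MI and 0 were lower, against 14.2% and 12.1% of 7723 genes. The median there was 1.40 over the 7 genes and 0.03 over all 7723. The Sele entry in that count rests on 1 cell, as given below. Because the list was chosen with earlier results of these data known, these shares describe it and test nothing.

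**Figure D2:**
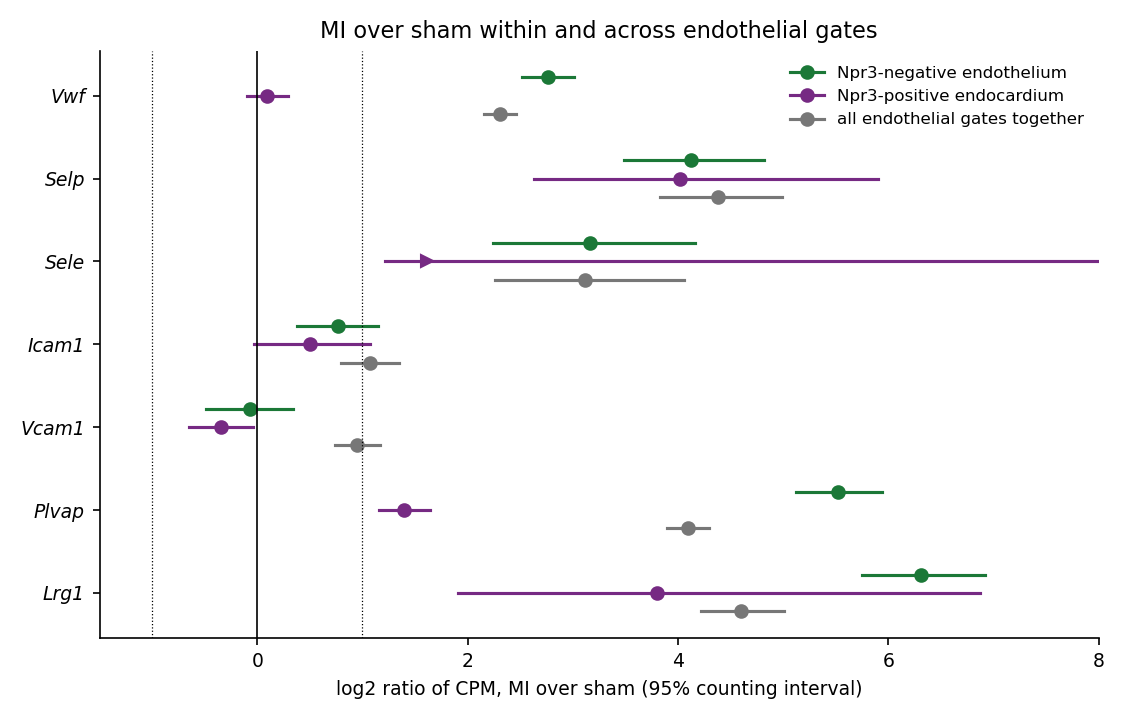
Log2 ratio of CPM, MI over sham, for each gene in Npr3-negative endothelium (green), Npr3-positive endocardium (purple) and all endothelial gates together (grey), with the 95% counting interval. The purple arrowhead for Sele is a lower bound, since sham had 0 UMIs, and its line runs off the axis. Vcam1 lies at -0.07 and -0.35 within the gates but at 0.95 when the gates are pooled.

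Vwf was highest in endocardium in both libraries, and its Npr3-negative level was higher in MI. In Npr3-positive endocardium it stood at 855 CPM (800 to 913, 898 UMIs) in MI, against 803 CPM (713 to 901, 287 UMIs) in sham (log2 ratio 0.09, -0.10 to 0.29). In Npr3-negative endothelium it stood at 365 CPM (331 to 402, 407 UMIs) in MI, against 53.9 CPM (46.7 to 61.8, 203 UMIs) in sham (log2 ratio 2.76, 2.51 to 3.01). The endocardial intervals overlap and the Npr3-negative ones do not. The gap between the gates was accordingly a log2 ratio of 1.23 (1.06 to 1.40) in MI and 3.90 (3.63 to 4.16) in sham. Lymphatic cells had 0 Vwf UMIs in MI, which allows up to 43.8 CPM, and 8 UMIs (61.7 CPM) in sham, 6 of them in 1 cell. With each cell thinned to 500 UMIs, so that depth was equal, a Vwf UMI was found in 14.5% (10.5 to 19.3) of MI and 2.05% (1.47 to 2.78) of sham Npr3-negative cells, where the unthinned shares were 46.5% in MI and 6.04% in sham. T, NK and B cells, which should lack the gene, gave 0.840% of 238 MI cells and 0 of 57 sham cells at that depth. The interval of 0 of 57 allows up to 6.27%. Their unthinned median depth was 1247.5 UMIs in MI and 1317 in sham.

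Selp, the other Weibel-Palade gene, differed between the libraries in both gates. It stood at 111 CPM (92.5 to 133) in MI, against 6.37 CPM (4.08 to 9.48) in sham Npr3-negative endothelium (log2 ratio 4.13, 3.49 to 4.82). In Npr3-positive endocardium it stood at 181 CPM (156 to 209) in MI, against 11.2 CPM (3.05 to 28.6, 4 UMIs) in sham (log2 ratio 4.02, 2.63 to 5.91). Neither pair of intervals overlaps, and within each library Npr3-positive cells were less than 2-fold above Npr3-negative ones. That log2 ratio was 0.70 (0.37 to 1.04) in MI and 0.81 (-1.18 to 2.35) in sham, where its upper bound lies under the lower bound for Vwf. Lymphatic cells had 6 Selp UMIs in 6 of 30 MI cells and 1 UMI in sham. After thinning, 4.83% (2.60 to 8.12) of MI and 0.358% (0.144 to 0.737) of sham Npr3-negative cells had a UMI, and unthinned shares were 21.2% in MI and 1.02% in sham. No T, NK or B cell had a Selp UMI in either library.

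Sele gave few UMIs in any cell type. In Npr3-negative endothelium 37 UMIs in 19 MI cells (33.2 CPM, 23.4 to 45.8) stood against 14 UMIs in 12 sham cells (3.72 CPM, 2.03 to 6.24), a log2 ratio of 3.16 (2.24 to 4.16). After thinning only 0.743% of MI and 0.256% of sham cells kept a UMI, too few to read a difference. In Npr3-positive endocardium there were 27 UMIs (25.7 CPM) in MI and 0 in sham, which with a floor of 3 counts over the gate is at least 3.06-fold higher in MI. Of those 27, however, 20 lay in 1 cell. Without it MI stood at 6.73 CPM, below the 8.39 CPM that the floor of 3 counts gives in sham. Lymphatic, T, NK and B cells had 0 Sele UMIs in both libraries.

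Icam1 was spread over many cell types, and in both endothelial gates its ratio between the libraries was under 2-fold. It stood at 77.1 CPM (61.7 to 95.3) in MI, against 45.4 CPM (38.9 to 52.7) in sham Npr3-negative endothelium (log2 ratio 0.76, 0.37 to 1.15). In Npr3-positive endocardium it stood at 143 CPM (121 to 168) in MI, against 101 CPM (70.5 to 139) in sham (log2 ratio 0.50, -0.03 to 1.07). In fibroblasts it was over 2-fold lower in MI, with 14.3 CPM in MI and 30.4 CPM in sham, a log2 ratio of -1.09 (-1.43 to -0.74). Macrophages and monocytes were at 24.3 CPM in MI and 18.1 CPM in sham. Non-endothelial cells held 64.2% of the Icam1 UMIs of the MI library and 39.5% of those of sham. Of the UMIs of all genes in kept cells, they held 28738186 of 32259666 in MI and 5823942 of 10412541 in sham. When cells were thinned to 500 UMIs before gating, the Npr3-negative log2 ratio passed 2-fold, at 2.27 (0.98 to 3.48), with 149 MI and 1219 sham cells left in the gate.

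Vcam1 marked endocardium and fibroblasts rather than Npr3-negative vessels. Its highest levels were 292 CPM (260 to 327) in MI, against 372 CPM (311 to 441) in sham Npr3-positive endocardium (log2 ratio -0.35, -0.65 to -0.04). Fibroblasts followed at 85.7 CPM (81.5 to 90.1) in MI, against 170 CPM (156 to 185) in sham (log2 ratio -0.99, -1.13 to -0.84). Npr3-negative endothelium held 58.3 CPM (45.0 to 74.3) in MI, against 61.1 CPM (53.4 to 69.5) in sham, and the interval of the log2 ratio, -0.49 to 0.34, leaves out a 2-fold difference in either direction. Fibroblasts supplied 69.3% of the Vcam1 UMIs of the MI library and 53.6% of those of sham. Of the UMIs of all genes in kept cells, they held 18208925 of 32259666 in MI and 3125769 of 10412541 in sham. Over all endothelial gates together, Vcam1 was nevertheless 0.95 (0.74 to 1.16) higher in MI on the log2 scale, while the log2 ratio was below 0 in both the Npr3-negative and the Npr3-positive gate. Npr3-positive cells, in which Vcam1 was 2.33 higher in MI and 2.61 higher in sham on the log2 scale than in Npr3-negative ones, made up more of MI endothelium than of sham endothelium. Pooling had the same sense for Icam1, at 1.07 (0.80 to 1.35). The Npr3-negative Vcam1 value also turned with the gate, to 0.39 with at least 2 Npr3 UMIs asked of endocardium, to -0.58 on a smaller marker list and to 1.45 (0.25 to 2.52) with cells thinned before gating.

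Plvap had the highest CPM of the 7 in the Npr3-negative and the Npr3-positive gate of MI. Npr3-negative cells held 669 CPM (622 to 719, 746 UMIs) in MI, against 14.6 CPM (55 UMIs) in sham (log2 ratio 5.52, 5.12 to 5.94). Npr3-positive cells held 1173 CPM (1108 to 1240) in MI, against 445 CPM (378 to 520) in sham (log2 ratio 1.40, 1.16 to 1.65). Lymphatic cells held 487 CPM (350 to 661) in MI, against 77.1 CPM (37.0 to 142) in sham (log2 ratio 2.66, 1.64 to 3.82). All 3 endothelial gates were thus higher in MI. In the lymphatic gate only Plvap and Lrg1 reached 20 UMIs over both libraries, and both were at least 2-fold higher in MI, against 8.41% of 2022 genes. The excess of endocardium over Npr3-negative endothelium was a log2 ratio of 0.81 (0.68 to 0.94) in MI and 4.93 (4.48 to 5.40) in sham. After thinning, a Plvap UMI was found in 29.4% (24.0 to 35.2) of MI and 0.461% (0.211 to 0.873) of sham Npr3-negative cells, with unthinned shares of 68.4% in MI and 1.43% in sham, against 0.840% of MI T, NK and B cells. Non-endothelial cells were at 3.27 CPM in MI and 3.43 CPM in sham.

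Lrg1 was lower in Npr3-positive than in Npr3-negative endothelium of MI, at a log2 ratio of -2.86 (-3.21 to -2.53). Npr3-negative cells held 567 CPM (524 to 613, 632 UMIs) in MI, against 7.17 CPM (4.72 to 10.4, 27 UMIs) in sham (log2 ratio 6.31, 5.75 to 6.92). Npr3-positive cells held 78.1 CPM (62.1 to 96.9) in MI, against 5.59 CPM (0.677 to 20.2, 2 UMIs) in sham (log2 ratio 3.80, 1.90 to 6.87). Lymphatic endothelium held 654 CPM (492 to 851) in MI, against 239 CPM (162 to 339) in sham (log2 ratio 1.45, 0.79 to 2.14). Lymphatic cells did not differ from Npr3-negative cells beyond counting error in MI (log2 ratio 0.20, -0.22 to 0.60) but were far above them in sham (5.06, 4.27 to 5.86). In sham, 31 of the library's Lrg1 UMIs, 50.0% of all, came from the 76 lymphatic cells. After thinning, 24.9% (19.9 to 30.5) of MI and 0.409% (0.177 to 0.805) of sham Npr3-negative cells had a UMI, and unthinned shares were 46.5% in MI and 1.13% in sham. Macrophages and monocytes held 16.9 CPM (132 UMIs) in MI and 0.441 CPM (1 UMI) in sham, and the 28 MI granulocytes held 6 UMIs. In Npr3-negative cells 7 of the 10 granulocyte-list genes were at 0 in each library, and the list summed to 19.7 CPM in MI and 2.92 CPM in sham.

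**Figure D3:**
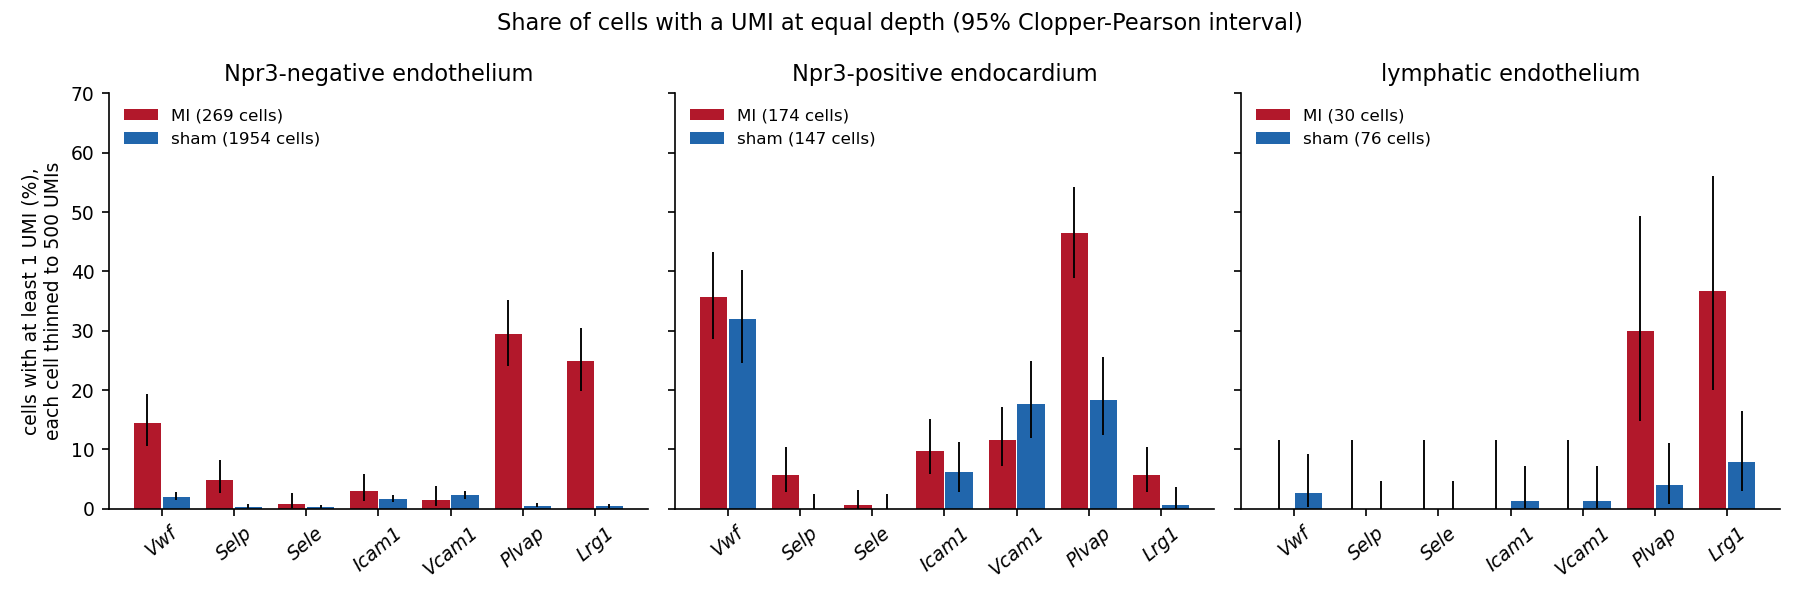
Share of cells with at least 1 UMI of each gene after every cell was thinned to 500 UMIs, in 3 endothelial gates of MI (red) and sham (blue), with the 95% Clopper-Pearson interval. In Npr3-negative endothelium Plvap is found in 29.4% of MI and 0.461% of sham cells, and Lrg1 in 24.9% of MI and 0.409% of sham cells. In Npr3-positive endocardium the Vwf shares, 35.6% in MI and 32.0% in sham, overlap.

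The order of levels separated the genes into patterns. Vwf, Selp, Icam1 and Plvap were highest in Npr3-positive endocardium of MI. For Vwf and Icam1 the interval of the sham endocardium overlapped that of the MI endocardium. Vcam1 was highest in sham endocardium, with MI endocardium next and overlapping. Lrg1 was highest in MI lymphatic cells, whose interval overlapped that of MI Npr3-negative cells. Sele was highest in MI Npr3-negative cells, and the overlap with MI endocardium rests on the 1 cell named above, without which the log2 ratio of the gates was -2.05 (-3.48 to -0.84). Compared with non-endothelial cells, Npr3-negative endothelium was at least 2-fold higher for 6 of the 7 genes in MI (Vcam1 excepted), against 16.6% of 14595 genes. In sham it was so for 4 of the 6 genes with enough UMIs (Vwf, Selp, Plvap and Lrg1), against 12.6% of 13356 genes.

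The excess of endocardium over other vessels was smaller in MI than in sham for Vwf and Plvap, and for Vcam1 the intervals of the libraries overlapped; the difference itself was not tested. Npr3-positive over Npr3-negative endothelium, 2 of 7 genes were at least 2-fold higher (Vwf and Vcam1) and 1 was lower (Lrg1) in MI, against 9.41% and 10.2% of 9002 genes; without its 1 cell Sele would also be lower. In sham, 4 of 6 were at least 2-fold higher (Vwf, Icam1, Vcam1 and Plvap) and 0 were lower, against 8.71% and 13.3% of 10698 genes. By the number of Npr3 UMIs in a cell (0, 1, 2, and 3 or more), Lrg1 in MI stood at 567, 180, 67.8 and 68.0 CPM. Over the same steps Plvap in sham stood at 14.6, 179, 257 and 544 CPM, and Vwf in sham at 53.9, 193, 610 and 1001 CPM. Cd36, of the capillary list, stood over these steps at 4410, 3345, 1798 and 603 CPM in sham. In MI it stood at 582, 95.3, 16.9 and 33.5 CPM. The middle steps held 25 and 17 cells in MI and 24 and 12 in sham, where Vcam1 in MI stood at 381 CPM for 1 Npr3 UMI and at 67.8 CPM (4 Vcam1 UMIs) for 2. Finding Npr3 depended on depth: thinned to 500 UMIs before gating, 26 MI and 42 sham endothelial cells still had an Npr3 UMI.

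**Figure D4:**
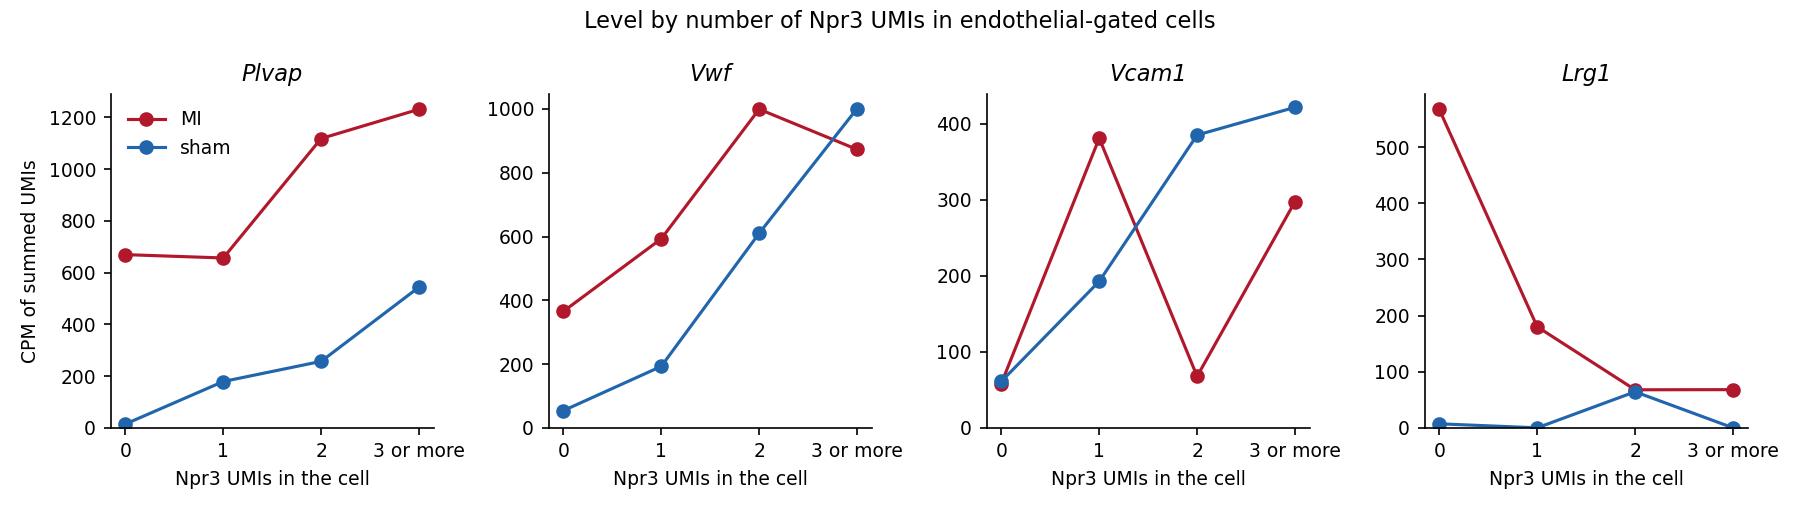
CPM of Plvap, Vwf, Vcam1 and Lrg1 in endothelial cells with 0, 1, 2 and 3 or more Npr3 UMIs, in MI (red) and sham (blue). Lrg1 in MI lies at 567 CPM at 0 UMIs and at 68.0 CPM at 3 or more, and sham Vwf reaches 1001 CPM there. The steps at 1 and 2 UMIs hold 25 and 17 MI cells and 24 and 12 sham cells.

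Within a library the genes were found in overlapping but not identical cells. After thinning, 52.4% of MI and 6.45% of sham Npr3-negative cells had a UMI of at least 1 of the 7 genes, and 16 of 269 MI and 2 of 1954 sham cells had 3 or more genes. In Npr3-positive cells the share with at least 1 was 75.3% in MI and 51.7% in sham. Among MI Npr3-negative cells, Lrg1 was found in 26 of 79 cells with Plvap (32.9%) and in 41 of 190 without (21.6%). Selp was found in 7 of 39 cells with Vwf (17.9%) and in 6 of 230 without (2.61%). Without thinning, Selp was found in 43 of 125 cells with Vwf (34.4%) and in 14 of 144 without (9.72%). The thinned MI Npr3-positive cells had little such difference, on few cells with Selp or Lrg1. Selp was in 4 of 62 cells with Vwf (6.45%) and in 6 of 112 without (5.36%). Lrg1 was in 4 of 81 cells with Plvap (4.94%) and in 6 of 93 without (6.45%). In the unthinned cells of that gate, Selp was in 72 of 155 with Vwf (46.5%) and in 3 of 19 without (15.8%). Lrg1 was there in 42 of 164 cells with Plvap and in 2 of 10 without. The part of depth in the unthinned shares was not tested.

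By vessel-type markers, MI Npr3-negative cells with at least 2 of the 8 capillary genes (203 cells) held 622 CPM of Lrg1 and 71.9 CPM of Selp. The 15 cells with none held 39.8 CPM of Lrg1 (2 UMIs) and 478 CPM of Selp (24 UMIs). Plvap was at 654 CPM in the capillary-marked cells and 757 CPM in those with none. Cells with at least 2 venous genes (120 cells) held 759 CPM of Lrg1 and those with none (65 cells) 313 CPM. Arterial genes ran the other way, with 408 CPM of Lrg1 in the 115 cells with at least 2 and 781 CPM in the 70 cells with none. Each list was applied on its own, so these sets share cells and are not separate vessel types. Marked cells were deeper, with a median of 3738.5 UMIs for at least 2 venous genes and 1675 for none, and the part of depth in these contrasts was not tested.

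The genes most like each member were sought among 14050 genes, by Pearson correlation of log2(CPM + 10) over 18 groups (cell classes of 20 or more cells in each library), as a description with shared libraries and depth. Plvap and Selp were nearest to each other (r = 0.92). Enpp6 was nearest to Vwf (r = 0.95), Fam167b to Sele (0.87), Dcaf8 to Icam1 (0.89), Ypel1 to Vcam1 (0.93) and Cda to Lrg1 (0.87). Enpp6 stood at 365 CPM in MI and 274 CPM in sham Npr3-positive cells, and at 83.4 CPM in MI and 9.03 CPM in sham Npr3-negative ones. Fam167b stood at 149 CPM in MI and 6.37 CPM in sham Npr3-negative cells. Ypel1 stood at 1.79 CPM in MI and 3.45 CPM in sham Npr3-negative cells. In Npr3-positive cells it stood at 4.76 CPM in MI and 5.59 CPM in sham. These Ypel1 levels lie under the 10 CPM added before the correlation. Among the 7, Vcam1 and Lrg1 were least alike (r = 0.11).

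Related genes were followed from 7 lists, with the 3 farthest from 0 named by rule and the other 2-fold genes named after their values were seen. These lists too were chosen with earlier results of these data known. Of 9 tested genes of endothelial storage granules and haemostasis, 6 were at least 2-fold higher in MI and 1 was lower in Npr3-negative endothelium, where 9.50% of all 11117 genes were higher and 15.5% lower. Procr, the protein C receptor, stood at 126 CPM in MI and 9.03 CPM in sham, and Edn1, the vasoconstrictor endothelin stored in endothelium, at 601 CPM in MI and 66.1 CPM in sham. Cd63, a tetraspanin of granule membranes, stood at 228 CPM in MI and 31.9 CPM in sham (log2 ratio 2.84, 2.52 to 3.16). The lower gene was Thbd, thrombomodulin, at 96.9 CPM in MI and 400 CPM in sham. The list's median log2 ratio was 1.49, against -0.08 over all genes.

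Chemokine genes with a 2-fold difference in Npr3-negative endothelium were 3 of 10, all higher in MI, against 9.50% higher and 15.5% lower among all genes. Ccl2, a monocyte attractant, stood at 102 CPM in MI and 15.4 CPM in sham, and Ccl7, another, at 22.4 CPM (25 UMIs) in MI and 0.797 CPM (3 UMIs) in sham. Darc, the older symbol of the venular chemokine receptor Ackr1, stood at 50.2 CPM (56 UMIs) in MI, against 0.266 CPM (1 UMI) in sham (log2 ratio 7.56, 5.03 to 12.89). The median over the list was -0.07. Of 14 genes of inflammatory signalling, 2 were higher (Socs3, a feedback inhibitor of cytokine receptors, and Tnfrsf1b) and 1 lower (Irf1), which is near the shares over all genes, 9.50% and 15.5%. Socs3 stood at 68.2 CPM in MI and 21.8 CPM in sham, Irf1 at 31.4 CPM in MI and 99.0 CPM in sham, and Il6st, the shared IL-6 family receptor chain, at 130 CPM in MI and 76.2 CPM in sham.

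Junction and adhesion genes were mixed, with 3 of 15 at least 2-fold higher (Alcam, Mcam and Pvrl2) and 4 lower (Jam2, Jam3, Podxl and Cldn5) in MI Npr3-negative endothelium, against 9.50% and 15.5% of all genes. Cldn5, the tight-junction claudin of endothelium and 1 of the gating markers, stood at 62.8 CPM in MI and 307 CPM in sham. Jam3 stood at 11.7 CPM in MI and 65.6 CPM in sham, and Alcam at 17.04 CPM in MI and 2.39 CPM in sham. Pecam1, at 874 CPM in MI and 838 CPM in sham, had a log2 ratio of 0.06.

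Caveolar genes, among which Plvap works, had 2 of 8 higher and 4 lower, against 9.50% and 15.5% of all genes. Ehd4 stood at 804 CPM in MI and 126 CPM in sham, Prkcdbp (a cavin) at 481 CPM in MI and 143 CPM in sham, and Sdpr (another cavin) at 1260 CPM in MI and 6152 CPM in sham. Cav1, Cav2 and Ptrf were the other lower genes, with log2 ratios of -1.24, -1.56 and -1.40. The median over the list was -0.97, whereas Plvap stood at 5.52. Of 12 tested genes of the TGF-beta pathway that Lrg1 modifies, 1 was higher (Tgfbr2, a receptor chain, at 144 CPM in MI and 49.7 CPM in sham) and 2 were lower (Id1, a target, at 222 CPM in MI and 652 CPM in sham, and Tgfb1), near the 9.50% and 15.5% of all genes. Smad1, a signal transducer of the same branch, stood at 198 CPM in MI and 108 CPM in sham, and Eng, endoglin, at 337 CPM in MI and 408 CPM in sham.

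Leukocyte partners of the adhesion genes differed by less than 2-fold over all kept cells. Of 11 such partners 0 were past that fold, against 10.1% higher and 21.7% lower among 16014 genes. Cd44, a selectin ligand carrier, stood at 101 CPM in MI and 50.9 CPM in sham, a log2 ratio of 0.98 (0.85 to 1.12). Itgax stood at 4.34 CPM in MI and 2.69 CPM in sham, and Itgb1, a partner chain of the Vcam1 receptor that many cells make, at 1003 CPM in MI and 809 CPM in sham. In macrophages and monocytes, which were 46.7% of kept cells in MI and 24.1% in sham, 1 of the 11 was at least 2-fold higher, against 9.26% of 11810 genes. It was Itgb7, an integrin chain, at 11.4 CPM in MI and 4.41 CPM in sham (log2 ratio 1.37, 0.42 to 2.48), named after its value was seen. Selplg, the P-selectin ligand, stood at 33.3 CPM in MI and 28.4 CPM in sham.

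Several of the 7 genes overlap others in the annotation (GENCODE vM21, GRCm38), and the strand setting of the counting was not given in the sources used here. Selp (chromosome 1, 164115264 to 164150026) overlaps 2 antisense genes, Vcam1 (chromosome 3, 116109949 to 116129688) and Icam1 (chromosome 9, 21015985 to 21028817) overlap 1 each, and Plvap (chromosome 8, 71497765 to 71511752) overlaps Gtpbp3. Reads of such partners cannot be told apart from those of the genes without strand. Vwf (chromosome 6, 125546774 to 125686679), Sele (chromosome 1, 164048234 to 164057677) and Lrg1 (chromosome 17, 56119678 to 56122001) overlap none.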

How the data were processed

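The authors deposited 2 tables of UMI counts per gene and cell barcode, whole numbers with no normalization. Per the submitters' processing notes the build was mm10 and Seurat was used; the counting tool was not given in the sources used here. Per the labels' protocols, Drop-seq was run on hearts collected on day 14, with 1 heart for MI and 4 pooled hearts for sham.

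The deposited counts summed to 33275336 UMIs in MI and 11307405 in sham, and no barcode had fewer than 500 genes. Cells with over 25% mitochondrial UMIs (114 in MI, 34 in sham) and scrublet doublets (scanpy 1.11.5; 147 or 1.74% of MI, 334 or 5.30% of sham cells) were left out. Barcodes ending in N (317 in MI, 671 in sham) were kept.

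An endothelial cell had a UMI of at least 3 of 10 markers and more of these than of any other class. Lymphatic cells had at least 2 of 4 lymphatic markers, and endocardium at least 1 Npr3 UMI. Non-endothelial cells had at least 2 markers of 1 of 7 classes and more of it than of any other list. All other cells stayed ungated. Emr1, Faim3 and Darc were used for Adgre1, Fcmr and Ackr1. Cebpd, 1 gene of the inflammatory list, was not analysed here. Of the granule list, 1 gene is not reported here.

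Summed UMIs per gate gave CPM with exact Poisson intervals, shares with Clopper-Pearson intervals and ratios with exact conditional binomial intervals (scipy 1.17.1), checked on simulated counts. A count of 0 was set to 3 counts over the gate in ratios. Intervals and floors cover counting error only. With 1 library per group no test was possible. Counts of genes past 2-fold use genes with at least 20 UMIs over both sides.

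Named besides the 7 genes were the 3 genes most like each and the 3 genes of each list whose MI over sham interval lay farthest from 0. Genes said to be chosen after their values were seen were added. Pecam1, Eng, Selplg and the marker genes were named outside these rules. The members and lists were chosen with earlier results of these data known. Alternatives changed the gates, the filters, the depth, the scaling, the weight of cells and the minimum of UMIs.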

Additional observations from a re-analysis of the deposited data

Results flagged for a closer look

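For Icam1, Vwf and Vcam1, cell classes with at least 20 UMIs differed between the libraries in opposite ways, with intervals on opposite sides of 0. How many of all genes do the same was not computed, so these are given as single values. The difference between the classes was not tested. The log2 ratio of Icam1, MI over sham, was -1.09 (-1.43 to -0.74) in fibroblasts and 0.76 (0.37 to 1.15) in Npr3-negative endothelium. The median over all genes tested was -0.22 in fibroblasts and -0.08 in Npr3-negative endothelium.

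The log2 ratio of Vwf was -0.91 (-1.64 to -0.14) in macrophages and monocytes and 2.76 (2.51 to 3.01) in Npr3-negative endothelium. The macrophage value compares 46 MI and 25 sham UMIs (5.88 CPM in MI and 11.02 CPM in sham). T, NK and B cells, which should lack Vwf, held 7.91 CPM (3 UMIs) in MI and 11.2 CPM (1 UMI) in sham. The log2 ratio of Vcam1 was 2.06 (0.13 to 5.15) in mesothelial cells, from 48 MI and 2 sham UMIs, against -0.99 (-1.13 to -0.84) in fibroblasts and -0.35 (-0.65 to -0.04) in Npr3-positive endocardium.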

How the results depend on the processing

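In Npr3-negative endothelium, Vwf, Selp, Plvap and Lrg1 stayed more than 2-fold higher in MI under all 12 alternatives, and Sele under the 11 that gave it a value. Their log2 ratios ranged over 2.51 to 3.65 (Vwf), 3.71 to 4.32 (Selp), 2.61 to 3.69 (Sele), 5.24 to 6.41 (Plvap) and 6.03 to 6.42 (Lrg1). Icam1 kept its direction (0.54 to 2.27), and Vcam1 did not (-0.58 to 1.45).

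With no condition on other classes' markers, the MI over sham log2 ratio of Vwf was 2.51 in Npr3-negative cells, and the Npr3-positive over Npr3-negative ratio in MI was 1.49 for Vwf and 1.02 for Plvap. On the 6-marker gate Vcam1 was -0.58, and the gate ratio was 0.39 (Sele, MI), 2.88 (Vcam1, MI) and at most 1.85 (Sele, sham). With at least 2 Npr3 UMIs, Vcam1 was 0.39 in Npr3-negative cells, Vwf -0.12 and Sele at least -0.52 in Npr3-positive cells, and the MI gate ratio was -2.69 for Sele and 1.76 for Vcam1. Without the cell with most UMIs of the gene, an alternative chosen after seeing the data, Sele was at least -0.33 in Npr3-positive cells and its MI gate ratio was -2.05. The Npr3-positive Sele result rests on that cell.

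Thinning before gating left 149 MI and 1219 sham Npr3-negative and 26 MI and 42 sham Npr3-positive cells. The MI over sham log2 ratio was then 3.65 (Vwf), 2.27 (Icam1), 1.45 (Vcam1) and 6.41 (Plvap) in Npr3-negative cells, and -0.36 (Vwf), -0.63 (Icam1) and at most -1.53 (Vcam1) in Npr3-positive cells. The gate ratio was 0.90 (Vwf), 0.20 (Icam1), at most 0.78 (Vcam1), 0.42 (Plvap) and -1.80 (Lrg1) in MI. In sham it was 4.91 (Vwf), at most 4.12 (Selp), 3.09 (Icam1), 3.76 (Vcam1), 5.64 (Plvap) and 2.05 (Lrg1). Several of these intervals took in 0. Among them were Npr3-positive Icam1 (-4.02 to 1.98), the MI gate ratio of Icam1 (-3.03 to 2.43) and the sham gate ratio of Lrg1 (-3.44 to 5.01). The Npr3-positive share ratio was -1.17. Genes 2-fold apart numbered 538 higher and 1066 lower, against 1056 and 1723 as reported; fewer genes reach 20 UMIs then. With at least 1 UMI, 6072 were counted as higher. A 0 was set to 3 counts there, so genes with 0 MI UMIs and few sham UMIs can enter that count. It is therefore no measure of how many genes were higher in MI. Otherwise the cause of these changes was not tested. Scaling by median of ratios moved the MI over sham log2 ratios of Npr3-negative cells by 0.08. No paired analysis was possible because each group is 1 library with no replicate number, and no replicate could be left out.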
